A study of Arabidopsis thaliana with 6 samples.

Results

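The 10 genes described here encode 7 enzymes of flavonoid synthesis and 3 MYB transcription factors of the same pathway in Arabidopsis thaliana. They were chosen by name, as the genes CHS, CHI, F3H, F3'H, FLS1, DFR, LDOX, MYB12, MYB111 and PAP1, and are 10 of the 38194 genes listed in the expression table. For each, the normalised expression in every library and every listed intron, exon skipping event and alternative donor or acceptor was examined.

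The libraries were made from polyadenylated RNA of rosette leaves, with 3 libraries of wild-type Col-0 plants and 3 of double mutant plants, mac3a mac3b. MAC3A and MAC3B are related subunits of the MOS4-associated complex, a protein complex that works with the spliceosome. All plants were 40 days old, had not flowered, and were grown at 22 °C under short days (8 h light, 16 h dark). The labels do not say whether libraries came from separate plants or pools, which mutant alleles were used, or at what hour leaves were taken, so p-values measure only the spread between these libraries.

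Flavonoids are phenolic plant compounds that include the flavonols, which absorb ultraviolet light, and the anthocyanins, which colour leaves red or purple. Chalcone synthase (CHS) starts the pathway, and chalcone isomerase (CHI) and flavanone 3-hydroxylase (F3H) continue it to a dihydroflavonol, on whose ring flavonoid 3'-hydroxylase (F3'H) can add a hydroxyl group. There the path divides. Flavonol synthase (FLS1) makes flavonols, while dihydroflavonol reductase (DFR) and leucoanthocyanidin dioxygenase (LDOX) lead to anthocyanins. MYB12 and MYB111 activate the early enzymes and FLS1, and PAP1 activates anthocyanin synthesis together with bHLH and WD40 partner proteins such as TT8 and TTG1.

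The depth was 80626787 to 108909613 unique reads per library over 13069 genes, which hold 7 of the 10 genes. Unique reads are not listed for F3'H, MYB12 and MYB111. Their depth is known only as average coverage of introns and neighbouring exons. The 5 leaf markers examined were at 431 to 16895 RPKM (reads scaled to gene length and library size) in all 6 libraries. Their summed level was 9416 to 26604 RPKM in Col-0 and 21882 to 31848 RPKM in the mutant. The 3 seed markers and the 2 root hair markers were at most at 0.04 RPKM, and of the 6 flower markers 5 stayed under 1 RPKM, with AG at up to 1.05 RPKM. The mutated genes were lower in every mutant library, MAC3A at 5.92 to 8.87 RPKM against 16.7 to 22.0 RPKM and MAC3B at 5.64 to 8.98 RPKM against 35.4 to 49.0 RPKM. Same-numbered libraries of the genotypes deviated alike, so fits that take the replicate number as a block are printed beside those without it. The labels do not say what a replicate number marks.

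The promoters of CHS and F3H, at the start of the pathway, and of DFR and LDOX, which moved together across libraries as described below, are shown as the 250 bases before each gene's annotated start in the reference genome of RefSeq, build TAIR10.1, read 5′ to 3′ on the gene's strand. Capitals mark CACGTG, the G-box, a core bound by bZIP factors such as HY5 and by bHLH factors.
CHS promoter, chr5:4488226-4488475, plus strand: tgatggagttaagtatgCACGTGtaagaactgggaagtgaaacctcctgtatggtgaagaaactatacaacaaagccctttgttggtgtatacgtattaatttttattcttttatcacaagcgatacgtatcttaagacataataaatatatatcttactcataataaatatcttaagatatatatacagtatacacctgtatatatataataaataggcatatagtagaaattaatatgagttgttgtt
F3H promoter, chr3:19024942-19025191, plus strand: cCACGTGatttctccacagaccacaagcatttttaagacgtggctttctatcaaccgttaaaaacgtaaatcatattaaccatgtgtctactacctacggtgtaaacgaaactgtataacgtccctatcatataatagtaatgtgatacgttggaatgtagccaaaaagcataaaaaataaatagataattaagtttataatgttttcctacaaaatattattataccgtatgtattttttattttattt
DFR promoter, chr5:17166033-17166282, minus strand: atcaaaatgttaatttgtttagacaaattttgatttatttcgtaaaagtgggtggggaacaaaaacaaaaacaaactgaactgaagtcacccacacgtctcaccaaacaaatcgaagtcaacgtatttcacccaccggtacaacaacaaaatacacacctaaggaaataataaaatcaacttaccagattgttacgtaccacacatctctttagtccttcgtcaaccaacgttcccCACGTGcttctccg
LDOX promoter, chr4:12006210-12006459, minus strand: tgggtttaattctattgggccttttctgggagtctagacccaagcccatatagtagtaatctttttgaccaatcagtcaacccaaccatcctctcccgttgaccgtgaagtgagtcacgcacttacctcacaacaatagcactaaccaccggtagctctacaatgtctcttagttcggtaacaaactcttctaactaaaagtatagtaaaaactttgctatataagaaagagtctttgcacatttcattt
The 6 letters CACGTG, which read the same on both strands, occurred in this window in 4 of the 10 genes, CHS, F3H, DFR and MYB12, and in 6.49% of the 27443 promoters of protein-coding genes cut the same way. They began 233 bases before the start in CHS, 249 bases before it in F3H, 118 in MYB12 and 14 in DFR. The AC elements known as targets of MYB factors, searched on both strands as ACCTACC, as the variant ACCAACC or as the variant ACCTAAC, occurred in 0 of the 10 windows and in 6.12% of all promoters.

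Introns within the coding region that are taken up again below are shown next, from the same genome. Capitals mark the GT donor and the AG acceptor at their ends.
CHS intron 1, chr5:4488955-4489040, plus strand: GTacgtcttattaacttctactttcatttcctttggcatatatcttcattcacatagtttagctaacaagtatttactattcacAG
CHI intron 1, chr3:20431200-20431282, minus strand: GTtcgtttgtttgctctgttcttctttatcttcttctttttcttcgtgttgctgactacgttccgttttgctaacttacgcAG
F3H intron 2, chr3:19025769-19025858, plus strand: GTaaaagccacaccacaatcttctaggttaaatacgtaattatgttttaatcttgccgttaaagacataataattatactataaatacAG
F3'H intron 3, chr5:2562300-2562379, plus strand: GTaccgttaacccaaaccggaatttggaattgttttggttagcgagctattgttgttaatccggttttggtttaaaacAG
FLS1 intron 2, chr5:2804875-2804959, plus strand: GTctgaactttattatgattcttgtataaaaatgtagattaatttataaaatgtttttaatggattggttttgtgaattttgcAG
DFR intron 1, chr5:17165656-17165746, minus strand: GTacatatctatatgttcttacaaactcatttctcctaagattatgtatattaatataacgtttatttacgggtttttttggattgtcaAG
PAP1 intron 2, chr1:21234210-21234298, minus strand: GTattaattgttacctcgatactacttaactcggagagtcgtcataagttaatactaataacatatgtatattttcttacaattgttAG
In each of the 10 genes, the intron lengths in the deposited table were those of 1 TAIR10.1 transcript model. Of the 26 listed introns, 23 lay within the coding region, and in 23 of these 23 the reading frame that enters from the upstream exons meets a stop codon inside the intron, ending between base 4 and base 133 of it. The lengths of 7 were multiples of 3. Introns of other genes were not read this way, so these counts have no share over all introns beside them.

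Expression of the early enzymes was higher in each mutant library than in the Col-0 library of the same number, but the spread between libraries of 1 genotype was wide. CHS (AT5G13930, chromosome 5, 4488476 to 4490264) was at 14.9, 99.1 and 94.7 RPKM in Col-0 replicates 1, 2 and 3 and at 153, 250.1 and 241 RPKM in the mutant replicates. Every mutant library lay above every Col-0 library, and replicate 1 was the lowest of each genotype. The means were 69.6 ± 47.4 and 214.5 ± 53.8 RPKM (SD, n = 3). The log2 fold change of RPKM + 1 was 1.98 (SE 0.73), and its limma adjusted p was 0.393, or 0.0697 under the replicate block. Without Col-0 replicate 1 the log2 fold change was 1.10. CHS was the only one of the 9 tested genes whose groups did not overlap, which held for 9.15% of all 17163 genes tested in that direction.

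CHI (AT3G55120, chromosome 3, 20430059 to 20431597) was at 4.45, 11.2 and 25.2 RPKM in Col-0 and at 18.6, 26.9 and 39.0 RPKM in the mutant, so that Col-0 replicate 3 overlapped the mutant libraries. Replicate 3 was the highest and replicate 1 the lowest in both genotypes. The genotypes differed by 1.22 on the log2 scale (SE 0.58), with limma adjusted p-values of 0.511 without the block and 0.0630 with it. F3H (AT3G51240, chromosome 3, 19025192 to 19026872) was at 2.35, 9.04 and 17.1 RPKM in Col-0 and at 12.9, 36.4 and 37.8 RPKM in the mutant, where replicate 1 lay below Col-0 replicate 3. Within same-numbered pairs the mutant level was 5.48, 4.02 and 2.22 times that of Col-0. F3H was the one gene of the 10 that limma called over all 6 libraries on the deposited values. Its log2 fold change of 1.68 did not pass without the block (SE 0.69, limma adjusted p 0.444) and passed with it (SE 0.21, limma adjusted p 0.0275), a fold of 3.21 with a 95% interval from 2.21 to 4.67. F3H's call was made over all 6 libraries and with both replicates 3 left out (limma adjusted p 0.0275), and it ended with both replicates 1 (0.110) or both replicates 2 (0.0617) left out. Of all 17163 genes, 0 were called with both replicates 1 left out, so no gene could keep a call there. The share was 1.38% with both replicates 2 left out and 2.3% with both replicates 3 left out. Without Col-0 replicate 1 alone, the log2 fold change without the block was 1.01. Other limma fits with the block called further genes. After rescaling to library totals CHS (limma adjusted p 0.0181) and CHI (0.0450) also passed, and with both replicates 3 left out CHI (0.0482) and FLS1 (0.0401) did. Fewer cells of a type and less RNA per cell cannot be told apart in these bulk samples.

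F3'H (AT5G07990, chromosome 5, 2560328 to 2563137) was lower, at 0.67, 5.16 and 1.84 RPKM in Col-0 and at 1.74, 19.6 and 1.88 RPKM in the mutant. Replicate 2 was the highest of both genotypes, and in replicate 3 the genotypes differed by a ratio of 1.02. The genotypes differed by 0.82 on the log2 scale (SE 0.87), with limma adjusted p-values of 0.827 without the block and 0.212 with it, and by −0.13 without mutant replicate 2.

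FLS1, which makes the flavonols (AT5G08640, chromosome 5, 2803833 to 2805606), was at 4.36, 7.88 and 22.3 RPKM in Col-0 and at 19.5, 22.4 and 24.9 RPKM in the mutant. The mutant libraries lay close together, and Col-0 replicate 3 lay within their range. The ratio of mutant to Col-0 within pairs was 4.48, 2.84 and 1.12 in replicates 1, 2 and 3, smallest where the Col-0 level was highest. The genotypes differed by 1.16 on the log2 scale (SE 0.51), with limma adjusted p-values of 0.472 without the block and 0.125 with it.

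**Figure D1:**
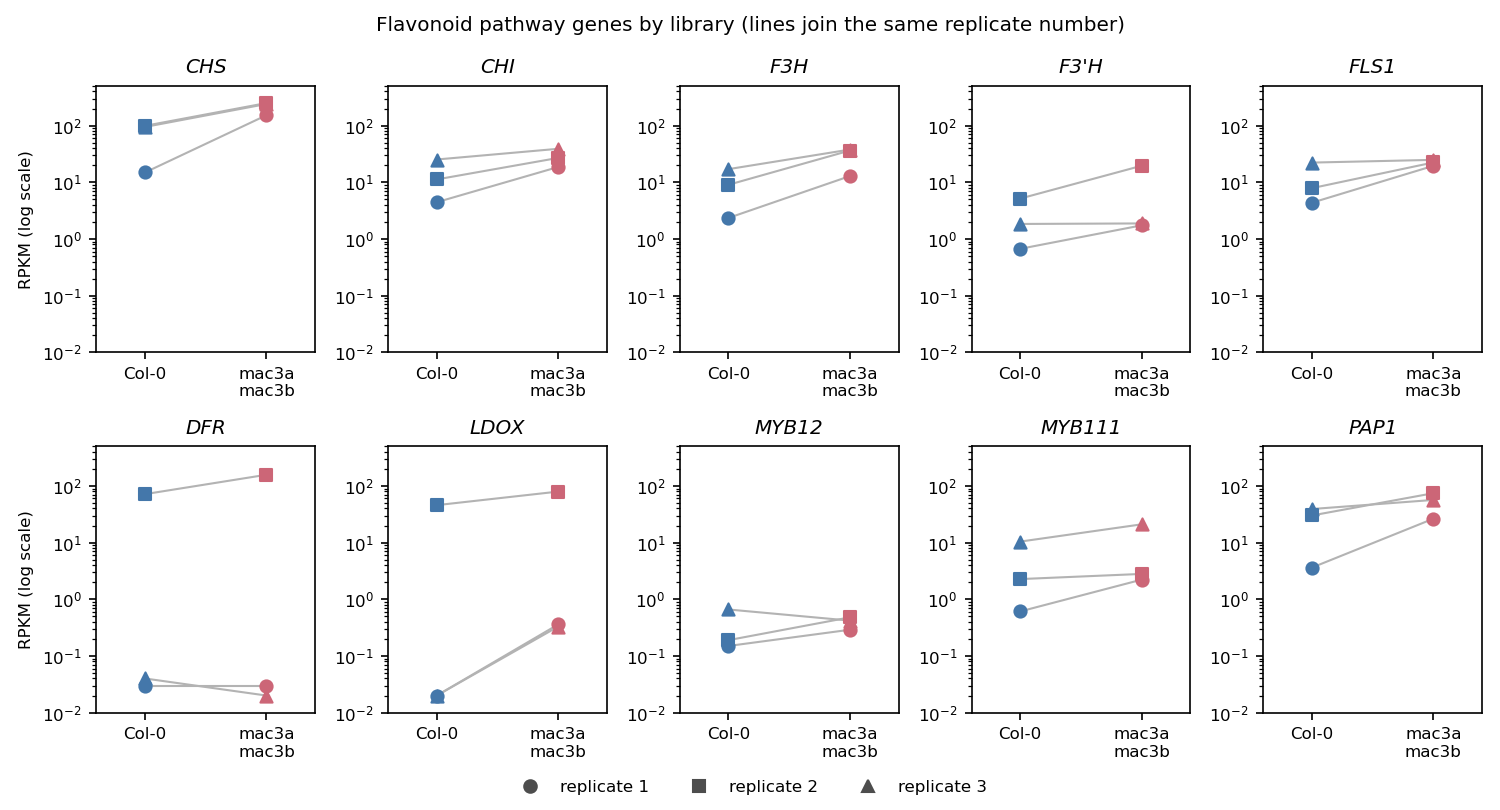
RPKM (log scale) of the 10 genes in each library, Col-0 in blue and mac3a mac3b in red, with a marker for each replicate number and a grey line between libraries of the same number. DFR and LDOX stand above 45 RPKM in the replicates 2 and below 0.4 RPKM in the others, and the CHS libraries of the genotypes do not overlap.

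The late enzymes DFR and LDOX were expressed in replicate 2 of both genotypes and almost nowhere else. DFR (AT5G42800, chromosome 5, 17164093 to 17166032) was at 0.03, 71.6 and 0.04 RPKM in Col-0 and at 0.03, 157 and 0.02 RPKM in the mutant. These rest on 5, 14178 and 7 unique reads in Col-0 and on 4, 28120 and 2 in the mutant. LDOX (AT4G22880, chromosome 4, 12004726 to 12006209) was at 0.02, 45.8 and 0.02 RPKM in Col-0 and at 0.36, 79.5 and 0.33 RPKM in the mutant.

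Within replicate 2 the mutant level was 2.20 times that of Col-0 for DFR and 1.74 times for LDOX, with 1 library on each side. Over all libraries DFR differed by 0.37 on the log2 scale (SE 2.48; limma adjusted p 0.983) and LDOX by 0.53 (SE 2.11; limma adjusted p 0.974). The 95% interval of the DFR fold ran from 0.021 to 79.4 without the block and from 0.809 to 2.05 with it, both on the RPKM + 1 scale, on which 2 of the 3 pairs are near 0 on both sides. With the block the limma adjusted p was 0.454 for DFR and 0.107 for LDOX. Without the block, the DFR difference turned to the Col-0 side, at −2.06 on the log2 scale, without mutant replicate 2, and LDOX to −1.44.

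LDOX differed from DFR in the libraries where both were low. In replicates 1 and 3 together, LDOX had 82 unique reads in the mutant and 4 in Col-0, a ratio of 24.3 after scaling to the library totals, with an exact 95% counting interval from 9.12 to 91.1. DFR had 6 and 12 such reads, a ratio of 0.592 with an interval from 0.182 to 1.70. Both intervals cover counting error only. The gene next to LDOX, AT4G22890 (PGR5-LIKE A, of photosynthetic electron transport), lies 776 bases away on the other strand and was at 180.1 to 413 RPKM in the 6 libraries. Whether reads from it reached the LDOX count was not tested.

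Of the 17163 genes tested, 9 (0.0524%) were at 1 RPKM or more in both replicates 2 and over 10 times higher there than in any other library, a rule chosen after the values were seen. DFR and LDOX were 2 of them, and 6 of the 8 listed genes that modify or move anthocyanins were others. These were the glycosyltransferases UGT75C1 and UGT79B1, the acyltransferases 5MAT, 3AT1 and 3AT2, and the glutathione transferase GSTF12, which is needed to bring anthocyanins into the vacuole. They are named after their values were seen, like the regulators that follow. In replicate 2, GSTF12 had 75.2 RPKM in Col-0 and 84.7 in the mutant, and 3AT1 had 10.05 and 10.9 RPKM, so that the ratio of mutant to Col-0 was 1.13 and 1.09. UGT75C1 was lower in the mutant there, at 28.2 against 36.6 RPKM. With 1 library a genotype, no test of these differences was possible.

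PAP1 and MYB111 were expressed in all libraries, and MYB12 had the lowest mean of the 10 genes in each genotype. PAP1 (AT1G56650, chromosome 1, 21233555 to 21235292) was at 3.62, 30.1 and 39.1 RPKM in Col-0 and at 26.4, 74.4 and 56.6 RPKM in the mutant, with replicate 1 the lowest of both genotypes. Col-0 replicates 2 and 3 lay above mutant replicate 1, so the groups overlapped. The genotypes differed by 1.46 on the log2 scale (SE 0.85), with limma adjusted p-values of 0.617 without the block and 0.103 with it. Without Col-0 replicate 1 the difference was 0.48 on the log2 scale. PAP1 was well expressed in the replicates 3, at 39.1 and 56.6 RPKM, in which DFR was at 0.04 and 0.02 RPKM. Its partner TT8 was at 1.95 and 2.81 RPKM in the replicates 2 and at most 0.05 RPKM in the other 4 libraries. The partner TTG1 was at 16.12 to 31.95 RPKM over all libraries. Among the other listed activators, GL3 was at 0.06 to 0.43 RPKM and EGL3 at 0.19 to 0.59 RPKM. Whether any of these bears on the DFR level was not tested. PAP2, a close relative of PAP1, was at 42.1 and 25.7 RPKM in Col-0 replicates 2 and 3 and at 27.7 and 2.31 RPKM in the same mutant replicates.

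MYB111 (AT5G49330, chromosome 5, 19998823 to 20001572) was at 0.61, 2.27 and 10.4 RPKM in Col-0 and at 2.22, 2.80 and 21.0 RPKM in the mutant, highest in replicate 3 of both genotypes. The genotypes differed by 0.72 on the log2 scale (SE 0.96), with limma adjusted p-values of 0.874 without the block and 0.106 with it, and by −0.16 without mutant replicate 3. HY5, a light-signalling bZIP factor, was also highest in the replicates 3, with 10.14 RPKM in Col-0 and 22.4 in the mutant, against 2.22 to 3.69 RPKM elsewhere. MYB12 (AT2G47460, chromosome 2, 19476326 to 19479597) was at 0.15, 0.19 and 0.66 RPKM in Col-0 and at 0.29, 0.48 and 0.42 RPKM in the mutant, and was below the mean of 1 RPKM needed for a test.

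Without the block, 0 of the 9 tested genes passed limma at an adjusted p of 0.05, against 0.105% of all genes tested, while CHS and F3H, 2 of the 9, were under 0.05 before adjustment, against 11% of all genes. With the block 1 passed limma, against 4.52% of all genes. DESeq2 with the block on the unique reads gave 6 of 7 as higher, all but DFR, against 7.07% of all genes. Their adjusted p-values were 2.0e-05 for CHS, 0.00064 for CHI, 5.3e-09 for F3H, 0.0076 for FLS1, 0.031 for LDOX and 0.0023 for PAP1. The LDOX log2 fold change in this fit was 3.31 (SE 1.14), against 0.53 in limma. In replicate 2, where LDOX was expressed, the mutant level was 1.74 times that of Col-0. In replicates 1 and 3 LDOX had 2 and 2 unique reads in Col-0 and 42 and 40 in the mutant. DESeq2 without the block gave 0 of 5 and edgeR 0 of 6, with 2 and 1 under 0.05 before adjustment. Of all genes, that DESeq2 fit called 3.55%, and edgeR called 0 of 13020. In the authors' deposited table the adjusted p of these genes ran from 0.183 (CHS) to 0.968 (MYB12), with none listed for DFR and LDOX.

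Of the 9 genes, 8 were higher in the mutant in 3 of 3 same-numbered pairs, all but DFR, which held for 25.4% of all genes tested. The median log2 fold change of the 9 was 1.16, and that of all genes tested was 0.01.

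**Figure D2:**
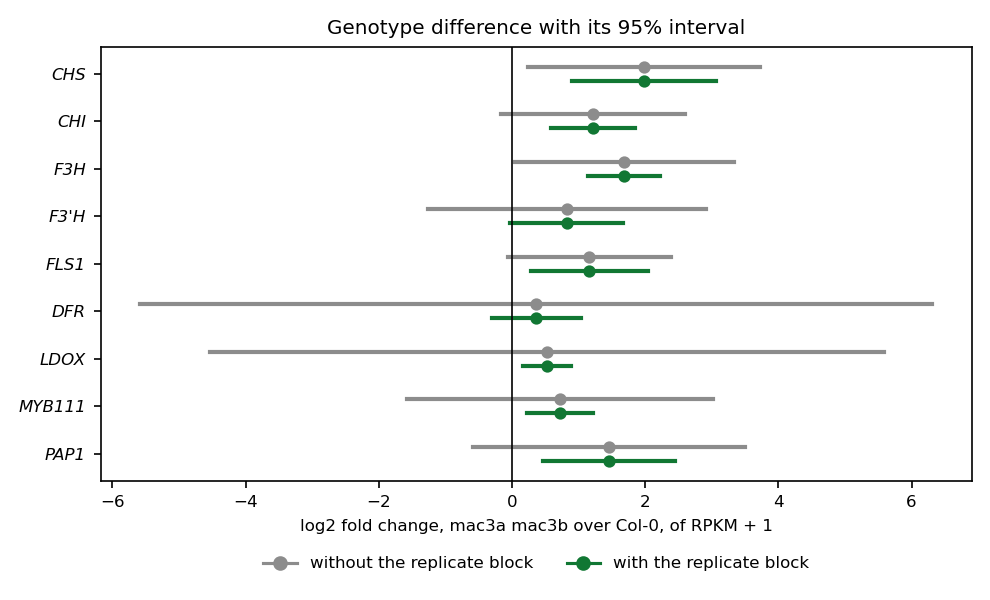
Log2 fold change of RPKM + 1, mac3a mac3b over Col-0, of the 9 tested genes with its 95% interval from limma, without (grey) and with (green) the replicate block. The points are the same in both fits; the intervals narrow with the block, most for DFR and LDOX.

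Levels per gene length showed how much the early and late enzymes differed. CHS was at 3.42 to 12.6 times the FLS1 level across the 6 libraries. It was at 1.38 and 1.59 times the DFR level in the replicates 2 of Col-0 and the mutant, and at least at 497 times in each of the other 4 libraries. In those 4, DFR was at 0.02 to 0.04 RPKM from 2 to 7 unique reads, so the size of these ratios is imprecise.

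The 5 genes outside the pathway whose profile was most like the mean of the 9 tested genes over the 6 libraries, each gene standardised on log2(RPKM + 1), were AT3G09690, the beta-amylase gene BAM1, the alternative oxidase gene AOX1A, HL and MIPS2, a myo-inositol phosphate synthase. Their Pearson r with that mean was 0.992 to 0.997, over 6 libraries that share replicate numbers and genotypes. AOX1A was at 23.2, 58.6 and 54.7 RPKM in Col-0 and at 47.1, 106.8 and 78.5 RPKM in the mutant. MIPS2 was at 4.85, 23.0 and 19.1 RPKM in Col-0 and at 16.9, 58.2 and 39.8 RPKM in the mutant.

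The rest of the pathway was read from a list of 47 further genes, of which 33 had a mean of at least 1 RPKM. Without the block limma passed 0 of 33, with 9 under 0.05 before adjustment. The block let 8 pass, all higher in the mutant, against 2.7% of all genes tested in that direction. The median log2 fold change of the 33 was 0.31.

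Among the entry enzymes, which feed phenylalanine into the pathway, 4 of 8 passed limma with the block and 0 without it. PAL1, a phenylalanine ammonia-lyase, was at 19.3, 10.2 and 21.1 RPKM in Col-0 and at 45.4, 35.6 and 93.8 RPKM in the mutant (log2 fold change 1.67, limma adjusted p 0.0255 with the block and 0.247 without). PAL2 had a log2 fold change of 1.27 (0.0228 with the block in limma), C4H, the cinnamate 4-hydroxylase, one of 1.01 (0.0274) and 4CL3, the 4-coumarate ligase linked to flavonoids, one of 2.03 (0.0160). The 4CL3 level was 2.01, 2.90 and 4.14 RPKM in Col-0 and 14.3, 12.5 and 18.9 RPKM in the mutant, groups that did not overlap. 4CL1, by contrast, had 0.21 (limma adjusted p 0.359 with the block).

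In the flavonol branch, 3 of 6 tested genes passed limma with the block. CHIL, a chalcone isomerase-like protein that assists CHS, was at 2.98, 7.33 and 7.98 RPKM in Col-0 and at 18.7, 33.5 and 21.7 RPKM in the mutant (log2 fold change 1.90, limma adjusted p 0.0254 with the block and 0.170 without). The others were the glycosyltransferases UGT78D2 (log2 fold change 0.93) and UGT89C1 (1.11), with limma adjusted p-values of 0.0487 and 0.0254 with the block. OMT1, UGT78D1 and RHM1 had every mutant library above every Col-0 library, with limma adjusted p-values of 0.061, 0.136 and 0.068 with the block, and are named after their values were seen. Such a separation held for 9.15% of all genes tested.

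In the anthocyanin branch 1 of 8 passed limma with the block, SCPL10, an acyltransferase that lies beside related SCPL genes. Whether reads were shared with them was not tested. It was at 2.26, 4.20 and 0.48 RPKM in Col-0 and at 20.7, 19.9 and 5.49 RPKM in the mutant (log2 fold change 2.29, limma adjusted p 0.0177 with the block and 0.272 without). Unlike DFR it was not limited to the replicates 2.

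Of 9 listed activators 3 were tested, and of 9 repressors 8, and 0 passed limma with or without the block. DESeq2 with the block on the unique reads called 1 of 5 activators, HY5 (log2 fold change 0.76, DESeq2 adjusted p 0.0096), and 0 of 3 repressors. Of all genes, this fit called 7.07% as higher and 14.1% in either direction. Some repressors followed the replicate number. LBD37, a repressor of anthocyanin genes, was at 47.1 and 41.6 RPKM in the replicates 1 of Col-0 and the mutant and at 1.93 to 3.93 RPKM in the other 4 libraries. KFB-CHS, an F-box protein that marks CHS for breakdown, was at 114 and 68.3 RPKM in the replicates 1 and at 13.5 to 25.4 RPKM in the others, while CHS transcripts were lowest there. The 5 genes of seed coat proanthocyanidin synthesis were all under 1 RPKM.

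**Figure D3:**
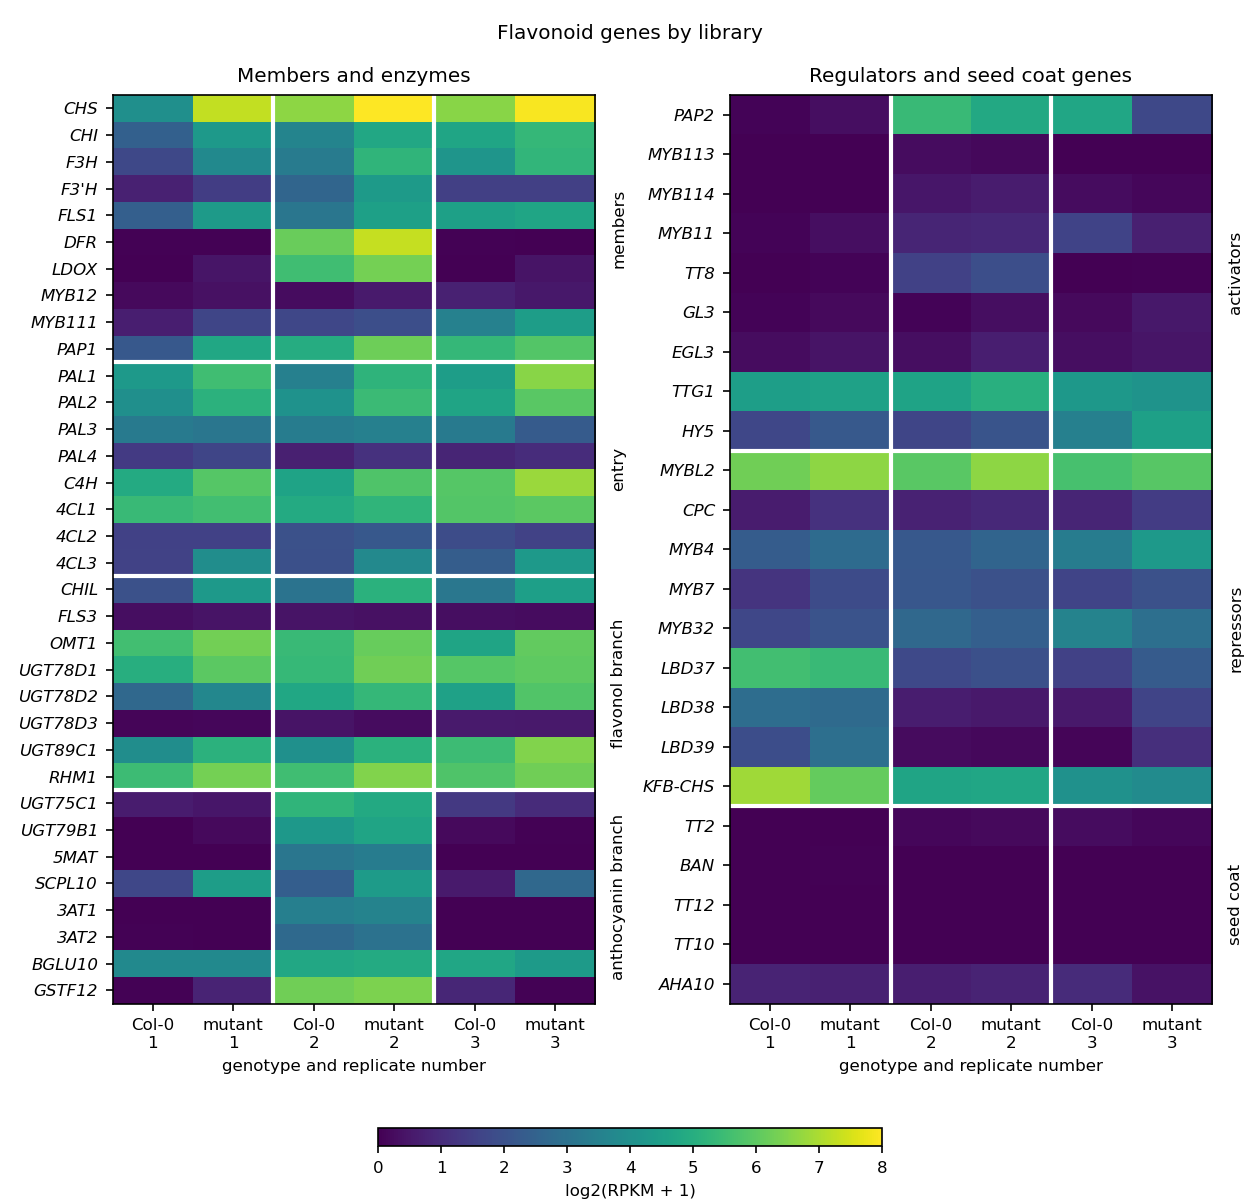
log2(RPKM + 1) of the 10 genes and of 47 further pathway genes in each library, with same-numbered libraries of Col-0 and mac3a mac3b (mutant) side by side. DFR, LDOX and most of the anthocyanin branch are bright in the replicates 2 of both genotypes, and LBD37 and KFB-CHS in the replicates 1.

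Intron retention was measured as the average read depth over the intron as a percentage of intron plus neighbouring exon depth. Of the 26 listed introns, 17 had the depth needed for a test in every library, and 10 were higher in the mutant at a limma adjusted p of 0.05, with or without the block, and 0 lower. This share of 58.8% was near that of all 94773 introns tested, of which 62.3% were higher without the block and 61.9% with it. The median log2 change was 1.69 over the 17 introns and 1.83 over all tested introns. Introns are numbered here from the 5′ end of the gene.

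CHS intron 1, whose sequence is shown above, was retained at 0.142%, 0.121% and 0.106% in Col-0 and at 0.679%, 1.41% and 3.10% in the mutant. All 3 mutant libraries lay above Col-0, where the 3 values were close together. The means were 0.123% ± 0.0182 and 1.73% ± 1.24 (SD, n = 3), a log2 change of 3.21 (SE 0.61; limma adjusted p 0.0034). CHI intron 1 was retained at 0.124%, 0.229% and 0.155% in Col-0 and at 3.34%, 2.99% and 8.75% in the mutant. It had the largest change of the 17 in the main test, with a log2 change of 3.86 (SE 0.57, limma adjusted p 0.0015). With a smaller pseudocount of 0.05 added to each depth, CHI intron 1 was at 4.67, and F3H intron 2 was higher, at 5.36. In the main test the changes of CHI introns 2 and 3 were smaller, 2.33 and 1.42 (limma adjusted p 0.012 and 0.039). Their mean retention in Col-0 was higher, 0.409% and 1.18% against 0.169% for intron 1. The call of CHI intron 3 ended without Col-0 replicate 1 or 3 or mutant replicate 2 or 3 (limma adjusted p from 0.080 to 0.117).

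F3H intron 2 was retained at 0%, 0.014% and 0.004% in Col-0 and at 0.428%, 1.78% and 1.27% in the mutant (log2 change 2.69, SE 0.76, limma adjusted p 0.016). Its intron depths in Col-0 were 0, 0.06 and 0.03, below the pseudocount added to each depth. The size of this change therefore depends on the pseudocount, and with one of 0.05 it was 5.36. In the main test the call of F3H intron 2 ended without Col-0 replicate 3 (0.055) or mutant replicate 2 (0.053). F3'H intron 3 was retained at 0.163%, 0.109% and 0.869% in Col-0 and at 3.49%, 5.66% and 5.33% in the mutant (log2 change 2.54, SE 0.65; limma adjusted p 0.011). F3'H intron 2 was often retained in both genotypes, at 11.4%, 8.49% and 1.77% in Col-0 and at 19.8%, 14.3% and 12.2% in the mutant, and did not pass (log2 change 1.39, 95% interval from −0.13 to 2.90; limma adjusted p 0.096).

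FLS1 intron 2 was retained at 2.05%, 1.75% and 3.08% in Col-0 and at 6.11%, 11.7% and 12.2% in the mutant (log2 change 2.13, SE 0.47; limma adjusted p 0.0057). This was the largest mean retention among the 10 introns that passed, 10.01% ± 3.38 (SD, n = 3) in the mutant. FLS1 intron 1 passed narrowly, with a log2 change of 1.25 (limma adjusted p 0.034), and the call ended when any library but mutant replicate 1 was left out (limma adjusted p from 0.068 to 0.097).

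Both PAP1 introns passed. Intron 1, of 540 bases, was retained at 0.086%, 1.55% and 0.970% in Col-0 and at 3.20%, 6.72% and 4.72% in the mutant (log2 change 2.43, SE 0.56; limma adjusted p 0.0068). PAP1 intron 2 was at 0.413%, 1.56% and 0.469% in Col-0 and at 5.35%, 9.81% and 5.78% in the mutant (log2 change 3.13, SE 0.55; limma adjusted p 0.0025). Neither MYB111 intron passed, with log2 changes of 0.33 and 1.30 (limma adjusted p 0.695 and 0.102), and the MYB12 introns were too shallow for a test.

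**Figure D4:**
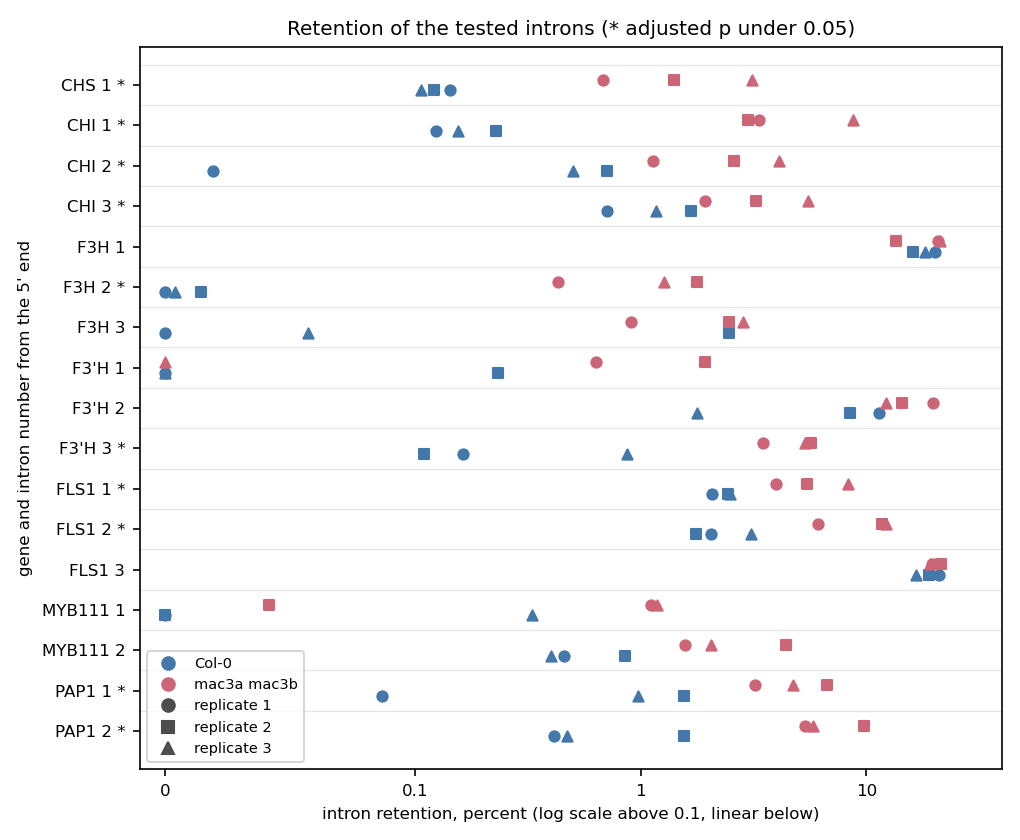
Retention (percent, log scale above 0.1 and linear below) of the 17 tested introns in each library, Col-0 in blue and mac3a mac3b in red, with a marker for each replicate number and a star at the 10 introns that passed. F3H intron 1 and FLS1 intron 3 lie near 20% in both genotypes, while the starred introns lie at higher values in the mutant.

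The tested introns outside the coding region did not pass. F3H intron 1, before the coding region, was retained at 20.1%, 16.1% and 18.3% in Col-0 and at 20.8%, 13.5% and 21.3% in the mutant. FLS1 intron 3, after it, was at 21.0%, 18.9% and 16.7% in Col-0 and at 19.5%, 21.5% and 19.1% in the mutant. Their log2 changes were −0.00 (95% interval from −0.96 to 0.96; limma adjusted p 1.00) and 0.10 (from −0.77 to 0.98; 0.822). Introns with a mean retention of at least 10% in Col-0 rarely passed in general, with 107 of 3621 higher (2.95%), against 64.7% of those under 10%. In TAIR10.1, F3H and FLS1 each have 2 transcripts, of which 1 holds this intron and the other runs through it as exon. In the F3H transcript without the intron, the coding region starts inside the intron's bases and is 1077 bases long, against 825 in the other.

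LDOX and DFR introns lacked the depth for a test in most libraries, so the replicates 2 are set side by side, 1 library against 1, with no test. LDOX intron 1, also outside the coding region, was at 14.97% in Col-0 and 21.1% in the mutant, and LDOX intron 2 at 1.60% and 2.73%. Outside the replicates 2, only mutant replicate 1 reached the depth of 10 at these introns, just above it, with 17.4% at LDOX intron 1 and 0% at LDOX intron 2. The 5 DFR introns were retained at 0.0863%, 0.525%, 0.873%, 1.17% and 2.96% in Col-0 replicate 2, in order from the 5′ end. In mutant replicate 2 they were at 2.56%, 2.69%, 2.65%, 3.21% and 4.81%. The log2 ratio of mutant to Col-0 fell along the gene, from 4.68 at intron 1 to 2.35, 1.61, 1.47 and 0.73 at introns 2 to 5. The median of that log2 ratio between the replicates 2 over all tested introns was 1.77, and 91.7% of them had one above 0.

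**Figure D5:**
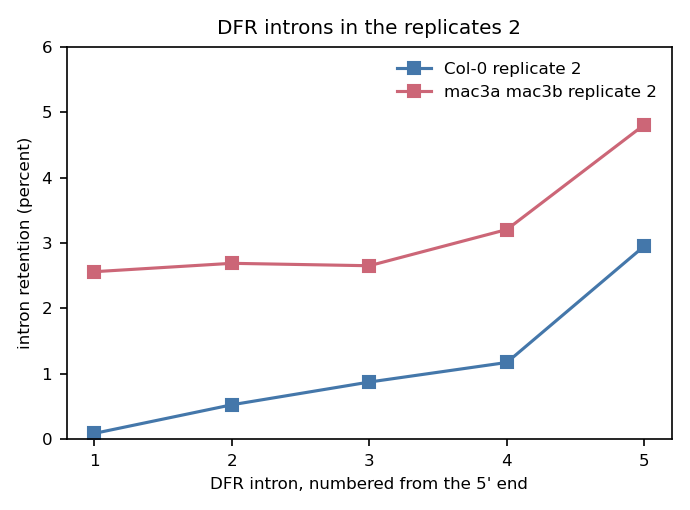
Retention (percent) of the 5 DFR introns, numbered from the 5′ end, in replicate 2 of Col-0 and of mac3a mac3b, the 2 libraries in which DFR was expressed. The mutant library is above the Col-0 library at each intron, and both are highest at intron 5. Between these 2 libraries, 91.7% of all 94773 tested introns had a higher ratio of intron to exon depth in the mutant.

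Junction use differed little. The one exon skipping event listed among these genes joins PAP1 exons 1 and 3, skipping exon 2. It had 0, 12 and 7 skipping reads in Col-0, beside 164, 1420 and 1805 inclusion reads, and 1, 1 and 5 in the mutant, beside 787, 2491 and 1636. The change was not called (log2 change −1.79, edgeR adjusted p 0.614). Of all 12382 events tested, 0.0162% passed.

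The table of alternative donors and acceptors held 42 rows for 7 of the 10 genes. Of these, 19 could be tested, and edgeR called 0 (lowest adjusted p 0.684; 0 under 0.05 before adjustment), against 0.187% and 5.3% of all 135996 events tested. By limma on the log2 ratio 0 were called as well, with 1 under 0.05 before adjustment. The alternative sites were rare. The annotated junctions of PAP1 introns 1 and 2 took 99.3% to 99.7% of the reads at their sites in both genotypes. The CHS junction took 5860 of 5863 reads in Col-0 and 14383 of 14389 in the mutant. LDOX held the one alternative site above 5% of reads, a junction that shifts by 10 bases. It had 16 of 241 reads (6.64%) in Col-0 and 29 of 289 (10.03%) in the mutant, nearly all from the replicates 2. The exact 95% binomial intervals, from 3.84% to 10.6% and from 6.82% to 14.1%, overlapped, and the event was not tested. At the other LDOX intron a donor or acceptor shifted by 5 bases had 26 of 989 reads (2.63%, exact interval from 1.72% to 3.83%) in Col-0 and 12 of 1495 (0.803%, from 0.415% to 1.398%) in the mutant. All 26 and all 12 came from replicate 2, so this compares 2 libraries and not the genotypes.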

How the data were processed

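The 6 libraries of rosette leaf RNA, 3 from Col-0 and 3 from mac3a mac3b, were grouped and numbered by the sample titles. The submitters' processing notes name Trimmomatic, Bowtie2, DESeq2 and TAIR10, without roles or versions; the counting rules are not given in the sources used here. The authors deposited values per gene whose unit is not stated. Their product with gene length was proportional to the deposited counts of unique reads (listed for 13069 of 38194 genes) within 1% in at least 97.9% of the genes compared in each library, and the values were therefore taken as RPKM. The log2 fold changes and p-values of the authors' deposited table are quoted only as theirs. RackJ, per the file names, produced the splicing tables. They hold deposited counts of reads on junctions and, for introns, the authors' average coverage as a signal; the authors' fraction of each intron covered and their adjusted score were not used in tests.

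Expression was tested with limma 3.58.1 (R 4.3.3, with a trend of variance on level) after log2(RPKM + 1), in the 17163 genes that averaged 1 RPKM or more, a scale that understates changes of weakly expressed genes. The raw count test of the design could not be the main one, since counts were not listed for all genes; edgeR 4.0.16 and DESeq2 1.42.0 on unique reads were alternatives. Introns were tested with limma on the log2 ratio of intron to exon depth, each + 0.5, where their sum was at least 10 in every library. Junction events were tested with edgeR's quasi-likelihood test of the genotype by read kind interaction, with at least 10 reads in every library; 24122 rows that repeat another with the read kinds exchanged were left out. P-values were adjusted by Benjamini-Hochberg over all features, with a threshold of 0.05. The tests were tried on simulated data. Replicate pairs of 1 genotype differed by far more than sampling noise.

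After subtracting genotype means, libraries numbered 1, 2 and 3 correlated between genotypes with r of 0.62, 0.78 and 0.43 across genes, so blocked fits are printed where they change a call. The genes and lists were chosen with earlier results of these data known. All 10 genes are named, as are other listed genes past the threshold in either limma fit, and the 5 genes most like their mean. Left-out pairs of replicates were alternatives chosen after seeing the data. Sequences and positions are from RefSeq's TAIR10.1.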

Additional observations from a re-analysis of the deposited data

How the results depend on the processing

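Without the replicate block, 0 of the tested genes passed in each limma, edgeR and DESeq2 alternative run, and 0 without any 1 library. The genes tested were 9 in limma, or 10 with no filter on level, 6 in edgeR and 5 in DESeq2. Of all genes, edgeR called 0% and DESeq2 3.55%. The limma alternatives called 0% to 0.132%, and those without 1 library 0% to 0.0641%. Where 0% of all genes were called, the 0 says nothing particular about these genes. The replicate block gave 1, rescaling to library totals with the replicate block 3, DESeq2 with the replicate block 6, and the replicate block with both replicates 3 left out 3, against 4.52%, 6.72%, 14.1% and 2.3% of all genes. Of the 47 further pathway genes, 0 passed without the block in limma and edgeR, also without any 1 library. DESeq2 on unique reads without the block gave 6 of 22 tested, against 3.55% of all genes. The replicate block gave 8, the same after rescaling 9, and DESeq2 with the replicate block 11, against 4.52%, 6.72% and 14.1% of all genes. With the block, 3 passed with both replicates 2 left out, 8 with both replicates 3 and 0 with both replicates 1 left out. The shares of all genes in these runs were 1.38%, 2.3% and 0%. The 10 intron calls became 7 to 10 without any 1 library and 6 with both replicates 2 left out, while the share called of all introns fell from 62.4% to between 50.6% and 57.6% and to 43.5%. CHS intron 1, CHI intron 1, F3'H intron 3 and both PAP1 introns passed in every alternative run. A pseudocount of 0.05 ended the calls of CHI introns 2 and 3 and FLS1 intron 1 and let MYB111 intron 2 pass. That pseudocount moved the log2 change of F3H intron 2 from 2.69 to 5.36, above that of CHI intron 1 at 4.67. F3H intron 3 passed without Col-0 replicate 2, and F3'H intron 2 and MYB111 intron 2 without Col-0 replicate 1. Block and pairing changed no intron, skipping or donor and acceptor call. Both event types had 0 calls in each alternative, and a minimum of 60 reads of each kind left no event of these genes to test.

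The values that turned direction had not passed limma. Leaving out 1 library moved the log2 fold change of DFR to between −2.06 and 2.41, of LDOX to between −1.44 and 2.37, of F3'H to between −0.13 and 1.32 and of MYB111 to between −0.16 and 1.49. With both replicates 2 left out, DFR was at −0.014 with and without the replicate block. Among introns, 1 library left out moved F3H intron 1 to between −0.14 and 0.26, F3'H intron 1 to between −0.087 and 1.22, FLS1 intron 3 to between −0.0041 and 0.21 and MYB111 intron 1 to between −0.11 and 0.999. With both replicates 2 left out F3H intron 1 was at 0.15 and F3'H intron 1 at −0.27, and with a pseudocount of 0.05 F3H intron 1 was at 0.012. The cause was not tested.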
